A study of Homo sapiens with 4 samples.

Results

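The genes described here encode the cytosolic factors that start and lengthen a protein chain, with their subunits, paralogues and direct modifiers. They were all genes whose annotated symbol begins with EIF1 to EIF6 or with EEF, leaving out the EIF2AK kinases and any pseudogenes. This gave 57 of the 19775 genes that have a probe set assigned to 1 gene only, of which 55 encode proteins and EIF1B-AS1 and EIF3J-DT are non-coding RNAs. Each gene was read at its brightest such probe set, and 55 of the 57 were bright enough to be tested (a mean log2 value of at least 4.60, which stands for an intensity of 8.26).

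The arrays came from KM-H2, an established Hodgkin lymphoma cell line carrying a fusion transcript that joins CIITA, the activator of HLA class II genes, to BX648577. The control group (n = 2 arrays) was KM-H2 transduced with a non-silencing control. The knockdown group (n = 2 arrays) was KM-H2 transduced with a lentiviral pGIPZ vector whose hairpin is aimed at the BX648577 part of the CIITA-BX648577 transcript. The labels number the arrays of each group 1 and 2 and do not say whether they come from separate cultures, so the spread between them may be technical. Only 1 hairpin in 1 cell line was used.

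Translation starts when eIF2 brings the initiator tRNA to the small ribosomal subunit, eIF3 holds the parts together, and the eIF4 factors bind the cap of the mRNA and unwind its leader. eIF1, eIF1A and eIF5 then govern the choice of the start codon, and eIF5B joins the large subunit. During elongation eEF1A delivers each aminoacyl-tRNA and eEF2 moves the ribosome along. Lymphoid cells step up these factors when they grow and divide, and many of the mRNAs that encode them begin with a C and a run of pyrimidines, through which their translation responds to mTOR signalling.

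The starts of such genes are shown first, because this feature is shared by factors of different complexes and was not used to choose them. RefSeq promoter windows (GRCh38.p14, 250 bases before and 50 after an annotated start) were found for 45 of the 57 genes, and 11 of the 45 (24.4%) had a C at an annotated start followed by at least 4 further C or T. Among the 10391 tested genes with a window, 7.08% had such a run, and among all 35116 windows 4.07%. The 11 were EEF1A1, EEF2, EIF2A, EIF2D, EIF2S3, EIF3D, EIF3F, EIF3K, EIF3M, EIF4A2 and EIF4B. The lines below give the 40 bases before the start and the first 12 of the transcript for 6 of them, picked after their values were seen so as to span the fold changes. Capitals mark the pyrimidine run at the start and, further upstream, the letters CACGTG (the E-box bound by MYC) or TGACGTCA (the cyclic AMP response element).
EEF1A1 (chr6:73521021-73521072, minus strand): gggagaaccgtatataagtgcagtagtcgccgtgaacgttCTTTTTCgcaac
EEF2 (chr19:3985452-3985503, minus strand): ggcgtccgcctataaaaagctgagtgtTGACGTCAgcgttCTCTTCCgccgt
EIF2D (chr1:206612454-206612505, minus strand): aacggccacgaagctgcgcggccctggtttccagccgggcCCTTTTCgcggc
EIF2S3 (chrX:24054916-24054967, plus strand): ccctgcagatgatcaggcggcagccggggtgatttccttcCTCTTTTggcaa
EIF3M (chr11:32583791-32583842, plus strand): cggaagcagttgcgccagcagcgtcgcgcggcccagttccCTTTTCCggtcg
EIF4B (chr12:53006416-53006467, plus strand): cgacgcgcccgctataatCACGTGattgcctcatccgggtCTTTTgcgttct

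Searched over the whole windows on both strands (each motif reads the same on either), CACGTG was present in 13 of the 45 genes (28.9%), against 12.4% of tested genes and 7.26% of all windows. TGACGTCA was present in 1 of the 45, EEF2, against 3.55% of tested genes and 1.85% of all windows. These are matches of letters in a window. The motifs do not overlap each other in the windows shown.

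Few translation factor genes differed between knockdown and control, and the differences were small. In limma's common-prior fit (1 prior variance for all genes, Benjamini-Hochberg adjustment over all 12922 genes tested, threshold 0.05) 0 of the 55 passed, against 0.0155% of all genes. At an unadjusted p under 0.05 there were 3 higher and 0 lower in that fit (5.45% and 0%), against 6.41% and 7.68% of all genes. In the intensity-trend fit, where the prior variance follows brightness, 2 of the 55 passed (3.64%), against 2.99% of all genes. Both were higher in the knockdown: EIF3G, a subunit of the eIF3 scaffold, and EEF1A2, the second eEF1A isoform. For higher genes the background was 1.59% and for lower genes, with 0 members, 1.4%. A share of 3.64% is near the background, so the group as a whole did not stand out by its calls. At an unadjusted p under 0.05, the intensity-trend fit had 11 members higher and 1 lower (20% and 1.82%), against 8.66% and 8.4% of all genes.

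**Figure D1:**
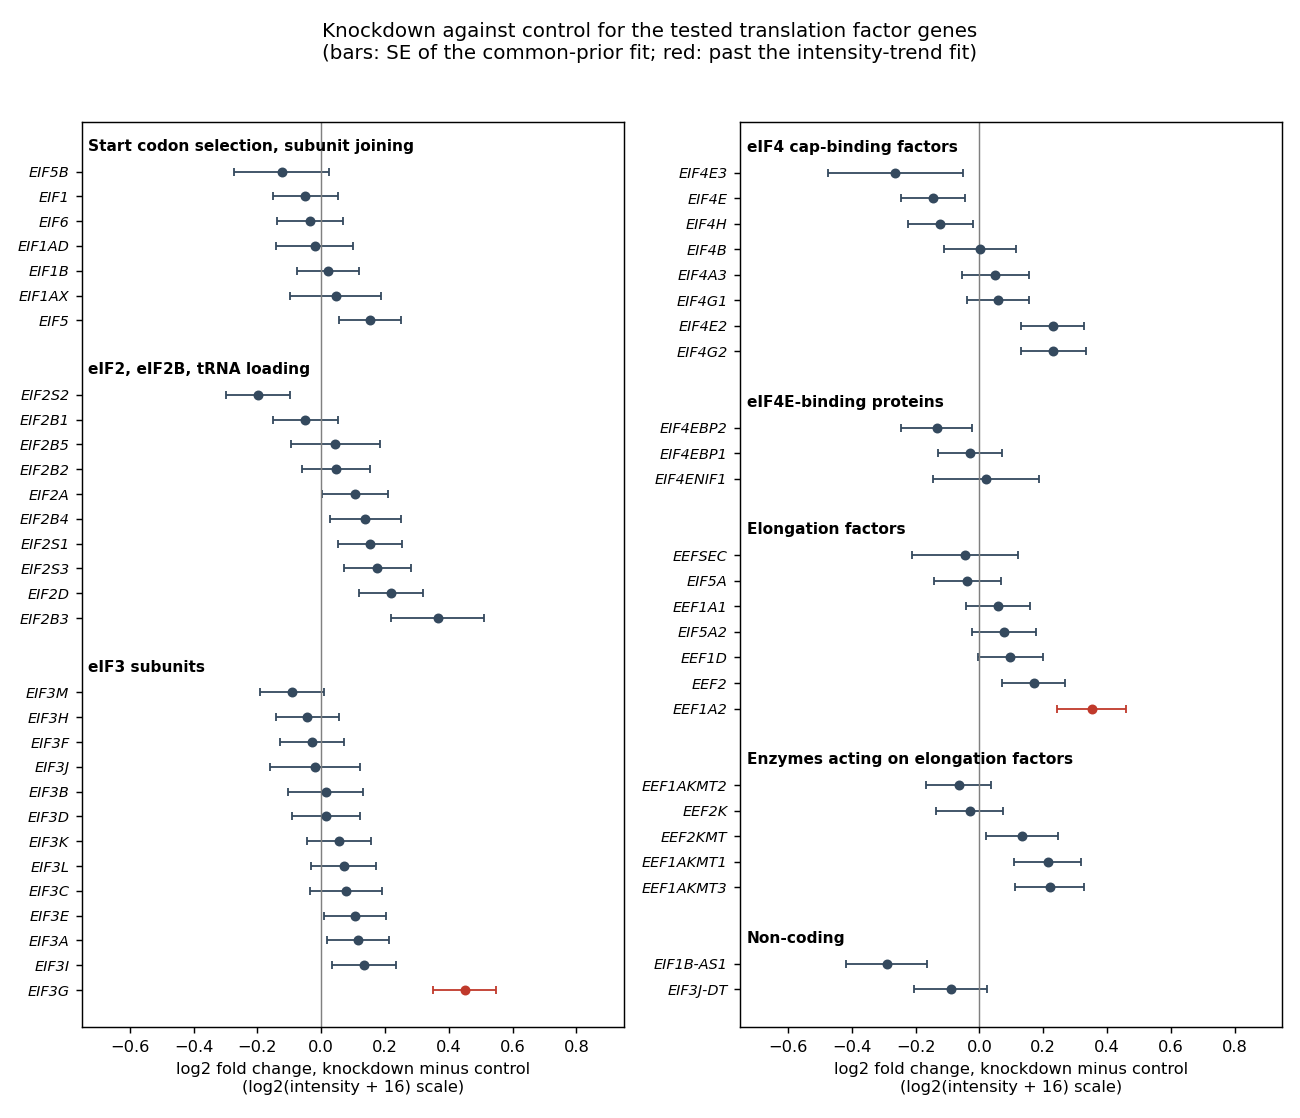
Log2 fold change (from log2(intensity + 16), knockdown minus control) of the 55 tested genes by role, with the SE of the common-prior fit as bars. EIF3G and EEF1A2, in red, passed the intensity-trend fit, and all values lie between -0.29 and 0.45.

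The log2 fold changes ran from -0.29 to 0.45, with a median of 0.05 beside -0.01 for all genes tested. Their quartiles, -0.04 and 0.13, lay closer together than those of all genes, -0.14 and 0.11. A total of 34 of the 55 lay above 0 (61.8%), compared with 47.5% of all genes. This count depends on the scaling, since it was 31 with quantile normalization and 45 with centring on the array median, where the share of all genes above 0 also went to 60.2%. Both knockdown arrays read above both control arrays for 23 of the 55 (41.8%) and below both for 7 (12.7%), beside 22.7% and 24.5% of all genes.

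The mean intensity was over 100 for 40 of the 55, while only 26.5% of all tested genes were that bright. Among all 3419 tested genes over 100, both knockdown arrays were higher for 31.8% and lower for 25.7%, the median was 0.01, and 7.25% passed the intensity-trend fit. The 40 bright members had 42.5% and 12.5%, a median of 0.03 and 5% past that fit. The 15 dimmer members had much the same shares, with 6 higher and 2 lower (40% and 13.3%), a median of 0.08 and 0 past that fit. All genes share the same 4 arrays, so these shares are descriptions. With 2 arrays against 2 an exact permutation test of a single gene cannot go below p = 0.333.

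**Figure D2:**
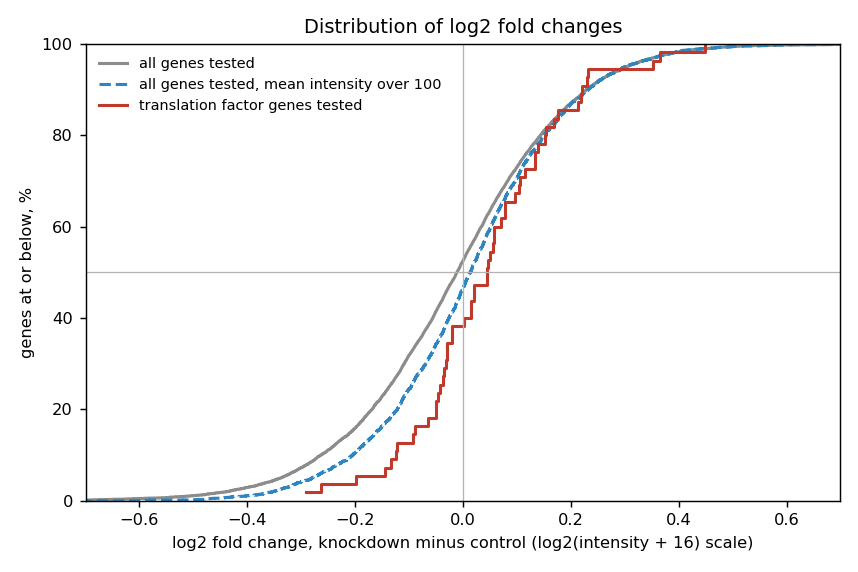
Cumulative share of genes (%) against the log2 fold change, knockdown minus control, for all 12922 genes tested, the 3419 of them with a mean intensity over 100, and the 55 translation factor genes. The translation factor curve is steeper and crosses 50% at 0.05, against 0.01 for bright genes and -0.01 for all genes.

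The RNA of the whole culture was measured, so a change in the make-up of the cells and a change in RNA per cell cannot be told apart. Array means were 53.3 to 54.6, and between 9.17% and 9.70% of the 54613 probe sets exceeded 100. Array medians were 9.17 and 9.28 in control but 8.37 and 8.12 in knockdown, with log2 medians of 4.65 and 4.66 against 4.61 and 4.59. Centring on the array median removes that difference. PIERCE2, the gene that the vector name FLJ27352 is generally taken to mean, read 880 and 947 in control and 621 and 590 in knockdown, a log2 fold change of -0.58 that passed the intensity-trend fit of limma only (adjusted p = 9.74e-05). Whether its probes lie in the part kept in the fusion was not tested. All 7 Hodgkin cell markers were above the filter, and FUT4 (higher) and FSCN1 (lower) passed the intensity-trend fit, with summed levels of 1609 to 1614 in control and 1590 to 1664 in knockdown. Of the 5 T cell markers with a probe set only CD3D was above it, at 194 and 183 in control and 253 and 225 in knockdown (0.32, past limma's intensity-trend fit with adjusted p = 0.0499), while CD3E, CD3G, CD2 and CD5 stayed at or below 14.0 on every array. That list summed to 208 and 210 in control and 248 to 287 in knockdown, and its part in the results below was not tested. Summed levels in control and knockdown were 88.7 to 91.6 and 94.0 to 98.1 for 5 B cell genes, all 5 of which were above the filter. They were 117 to 122 and 116 to 118 for 5 monocyte markers, 2 of them above the filter. For 5 epithelial markers, 1 of them above it, they were 33.6 to 54.0 and 31.7 to 43.2.

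Start codon selection and subunit joining had 7 tested genes, none of which passed either fit, with a median of -0.02. EIF1, the guardian of start codon fidelity, read 3428 and 3605 in control and 3469 and 3324 in knockdown. The groups overlapped, and the log2 fold change was -0.05 (limma intensity-trend adjusted p = 0.662). The next 3 EIF1 probe sets in brightness stood at -0.09, -0.13 and -0.08, and EIF1B, a close paralogue of EIF1, at 0.02. EIF5, which makes eIF2 hydrolyse its GTP at the start codon, read 405 and 418 in control and 458 and 460 in knockdown. All knockdown values were above the controls, by 0.15 (SE 0.10, common-prior adjusted p = 0.514 and intensity-trend adjusted p = 0.258). The other EIF5 probe sets gave 0.11, 0.03, -0.04 and -0.05, so the difference was not shared by all of them. EIF5B, the subunit-joining GTPase, read 219 and 194 in control and 217 and 162 in knockdown (-0.12), EIF1AX, which works with eIF1 during scanning, gave 0.05, and EIF6, which keeps the large subunit from joining early, gave -0.04. EIF1AD, named for its likeness to eIF1A, gave -0.02. EIF1AY, a Y-linked gene, is counted among the 57 and no value is given for it.

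The eIF2 group, which loads the initiator tRNA and recharges eIF2 with GTP, had 10 tested genes, and none passed either fit. The median was 0.12, with 8 above 0, and the knockdown arrays were both higher for 6 and both lower for 1, beside 22.7% and 24.5% of all genes. The subunits of eIF2 itself lay on either side of 0. EIF2S3, the GTP-binding gamma subunit, read 875 and 799 in control and 922 and 971 in knockdown, with group means of 837 ± 53.7 and 947 ± 34.7 (SD, n = 2) and a log2 fold change of 0.18 (SE 0.11). Its other probe sets gave 0.07 and 0.35. EIF2S1, the alpha subunit that stress kinases phosphorylate, read 369 and 364 against 398 and 422 (0.15). EIF2S2, the beta subunit, was the one member of this group with both knockdown arrays below both controls, at 614 and 591 against 531 and 516 (-0.20, limma intensity-trend adjusted p = 0.117). The other EIF2S2 probe set was dim, at 5.49 and 15.15 against 11.42 and 17.16, and gave 0.22. EIF2S2 was singled out after its values were seen.

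Among the subunits of eIF2B, the exchange factor of eIF2, EIF2B3 had the largest log2 fold change. It read 58.8 and 41.8 in control and 72.9 and 64.6 in knockdown, n = 2 arrays each, with means of 50.3 and 68.8 and a log2 fold change of 0.36 (SE 0.15). The controls differed widely between themselves, and neither fit passed (adjusted p = 0.336 and 0.140). Without control replicate 1 the value was 0.55 and was past limma's intensity-trend threshold (adjusted p = 0.0440), and without control replicate 2 it was 0.18 (adjusted p = 0.503). EIF2B4 gave 0.14, EIF2B2 0.05, EIF2B5 0.04 and EIF2B1 -0.05. EIF2D and EIF2A, which can deliver tRNA without eIF2, read 187 and 185 against 213 and 226 (0.22), and 507 and 550 against 562 and 578 (0.11).

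Of the 13 tested eIF3 genes, EIF3G was the only one past a fit. It encodes a subunit that binds RNA and has a single probe set here. EIF3G read 274 and 260 in control and 373 and 368 in knockdown. The values within each group lay close together and the groups were well apart, with means of 267 ± 10.5 and 370.3 ± 3.97 (SD, n = 2). The log2 fold change was 0.45 (SE 0.10 in the common-prior fit and 0.074 in the intensity-trend fit). EIF3G had an adjusted p of 0.00393 in limma's intensity-trend fit, which it passed, and of 0.252 in the common-prior fit, which it did not. The intensity-trend call held with each array left out, with values from 0.41 to 0.49, where the lone array of a group is assumed to vary like the other group. It was lost where probe sets of the same gene were averaged (adjusted p = 0.0614), a setting that leaves EIF3G itself at 0.45 and changes only the genes around it.

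The other 12 eIF3 subunits passed neither fit and lay between -0.09 and 0.13. EIF3F, a subunit with an MPN domain, read 1870 and 1884 in control and 1887 and 1793 in knockdown (-0.03). EIF3I, which sits beside EIF3G and EIF3B in the complex, read 525 and 497 against 566 and 558 (0.13), and EIF3B itself gave 0.01. EIF3E and EIF3L gave 0.10 and 0.07, EIF3K 0.06 and EIF3D 0.02. EIF3M, EIF3H and EIF3J gave -0.09, -0.04 and -0.02. EIF3A, the largest subunit, depended on where it was read. Its brightest probe set stood at 332 and 326 against 358 and 358 (0.12), and the next at 315 and 298 against 246 and 248 (-0.29, limma intensity-trend adjusted p = 0.0537 over all probe sets). The third, dim at means of 24.5 and 23.6, gave -0.04. EIF3C was read at a dim probe set, with 12.1 and 8.47 against 12.6 and 10.8 (0.08). EIF3CL, its near-identical copy, has no probe set of its own here, so the level of EIF3C is uncertain.

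**Figure D3:**
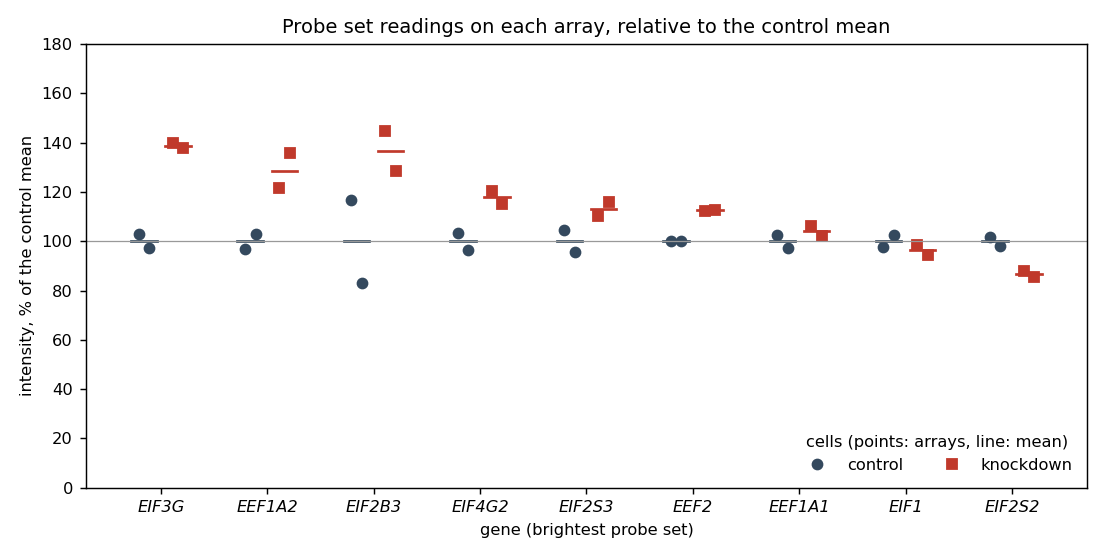
Intensity on each array as a percentage of the control mean for 9 genes at their brightest probe set, with dots for control arrays, squares for knockdown arrays and lines for group means. EIF3G, EEF1A2, EIF2B3, EIF4G2, EIF2S3 and EEF2 had both knockdown arrays above both controls, EIF2S2 had both below, and EEF1A1 and EIF1 overlapped.

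None of the 8 tested eIF4 genes passed either fit (median 0.03, 5 above 0). EIF4E, which binds the cap, read 177 and 165 in control and 153 and 154 in knockdown. The knockdown arrays were both lower, by 0.14 on the log2 scale (limma intensity-trend adjusted p = 0.425), and its next 2 probe sets gave -0.17 and -0.04. EIF4E2, a cap-binding relative that represses rather than starts translation, read 84.2 and 83.4 against 104 and 98.6, a difference of 0.23 (SE 0.10, intensity-trend adjusted p = 0.233). A second EIF4E2 probe set, with means of 87.5 and 87.9, gave 0.01. Its dim probe sets, at control means of 19.9 and 15.9, gave 0.07 and -0.16. EIF4E3, another cap-binding relative, read 61.5 and 71.7 against 70.6 and 38.4 (-0.26), and only knockdown replicate 2 lay outside the control range. Without knockdown replicate 1 EIF4E3 was at -0.60 and passed limma's intensity-trend fit (adjusted p = 0.0178), and without knockdown replicate 2 it was at 0.071.

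EIF4G2, a relative of the eIF4G scaffold that lacks the eIF4E-binding part, read 697 and 651 in control and 811 and 776 in knockdown. The group means were 674 ± 32.8 and 794 ± 24.9 (SD, n = 2), and the log2 fold change was 0.23. In limma's common-prior fit the SE was 0.10 and the adjusted p 0.369, and in its intensity-trend fit 0.064 and 0.0592. Centring on the array median brought that gene past the intensity-trend fit (0.29, adjusted p = 0.0136), while averaging its probe sets took it to 0.10 (adjusted p = 0.649). The only other tested EIF4G2 probe set, dim at means of 17.6 and 19.3, gave 0.08. EIF4G1, the main scaffold, read 148 and 149 against 153 and 158 (0.06) at its brightest probe set and 107 and 81.4 against 119 and 155 (0.48) at another. EIF4B, the partner of the eIF4A helicase, gave 0.00 at its brightest probe set, where 751 and 706 compared with 681 and 781. Its other probe sets read 249 and 256 against 320 and 372 (0.43, intensity-trend adjusted p = 0.0122 over all probe sets), and 102 and 134 against 161 and 145 (0.34). EIF4H, a second helicase partner, gave -0.12, and EIF4A3, the helicase of the exon junction complex, 0.05. EIF4A2 was too dim to be tested at its only probe set of its own, with 3.48 and 1.75 against 4.93 and 6.77.

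The eIF4E-binding inhibitors, which restrain cap-dependent translation, had 3 tested genes, and none passed either fit. EIF4EBP1 read 208 and 217 in control and 203 and 212 in knockdown (-0.03). EIF4EBP2 read 63.3 and 52.8 against 51.0 and 51.7 (-0.13), where control replicate 2 lay close to both knockdown arrays, and its next 2 probe sets gave 0.06 and 0.00. EIF4ENIF1, which carries eIF4E into the nucleus and into mRNA granules, read 57.8 and 40.4 against 57.0 and 42.6 (0.02).

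The elongation factors had 7 tested genes with a median of 0.08, and EEF1A2 passed the intensity-trend fit. EEF1A2 is the eEF1A isoform typical of nerve and muscle, also found in some tumours. It read 507 and 539 in control and 636 and 709.9 in knockdown. Both knockdown arrays were above both controls, though they differed from each other by more than the controls did, and the means were 523 ± 23.1 and 673 ± 52.3 (SD, n = 2). The log2 fold change was 0.35 (SE 0.11 in the common-prior fit and 0.071 in the intensity-trend fit). Its adjusted p was 0.273 in limma's common-prior fit and 0.0133 in the intensity-trend fit. The call was lost without control replicate 1 (0.31), without knockdown replicate 2 (0.27), with no filter (adjusted p = 0.0599) and with probe sets of the same gene averaged (adjusted p = 0.112). EEF1A2 has 1 probe set of its own, so averaging left it at 0.35 and changed only the genes around it. EEF1A1, the common isoform, read 4132 and 3926 against 4277 and 4115. Its groups overlapped (0.06, intensity-trend adjusted p = 0.579), and 3 more very bright probe sets gave 0.02, 0.08 and 0.11. Probes in such sets may also bind similar transcripts, and EEF1A1 has many processed copies, so its level is uncertain. A dimmer EEF1A1 probe set of the plain type read 83.6 and 85.9 against 108 and 106 (0.29, intensity-trend adjusted p = 0.137 over all probe sets).

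EEF2, the translocase, had replicate arrays that lay very close together and was singled out after its values were seen. It read 2760.2 and 2759 in control and 3103 and 3109 in knockdown. This difference of 0.17 had an SE of 0.10 in the common-prior fit and 0.047 in the intensity-trend fit. It did not pass the intensity-trend fit (limma adjusted p = 0.0581, common-prior adjusted p = 0.473). It passed the intensity-trend fit with a pseudocount of 64, a mean intensity of at least 32, quantile normalization, median centring or robust prior estimates. The other EEF2 probe set read 1965 and 1982 against 2348 and 2486, a difference of 0.29 that passed the intensity-trend fit over all probe sets (adjusted p = 0.00806). EEF1D, part of the exchange factor that recharges eEF1A, gave 0.10 at 782 and 822 against 839 and 879.7. Another EEF1D probe set read 290 and 306 against 391 and 383 (0.36, intensity-trend adjusted p = 0.0173 over all probe sets). EIF5A, which rescues ribosomes stalled at certain sequences and carries the amino acid hypusine, read 282 and 258 against 269.6 and 255 (-0.04) at its brightest probe set and 58.3 and 62.8 against 76.1 and 87.5 (0.35) at another. EIF5A2, its paralogue, read 82.8 and 82.1 against 91.2 and 84.7 (0.08), with 0.25 and 0.18 at its dimmer probe sets. EEFSEC, which delivers selenocysteine, gave -0.05.

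**Figure D4:**
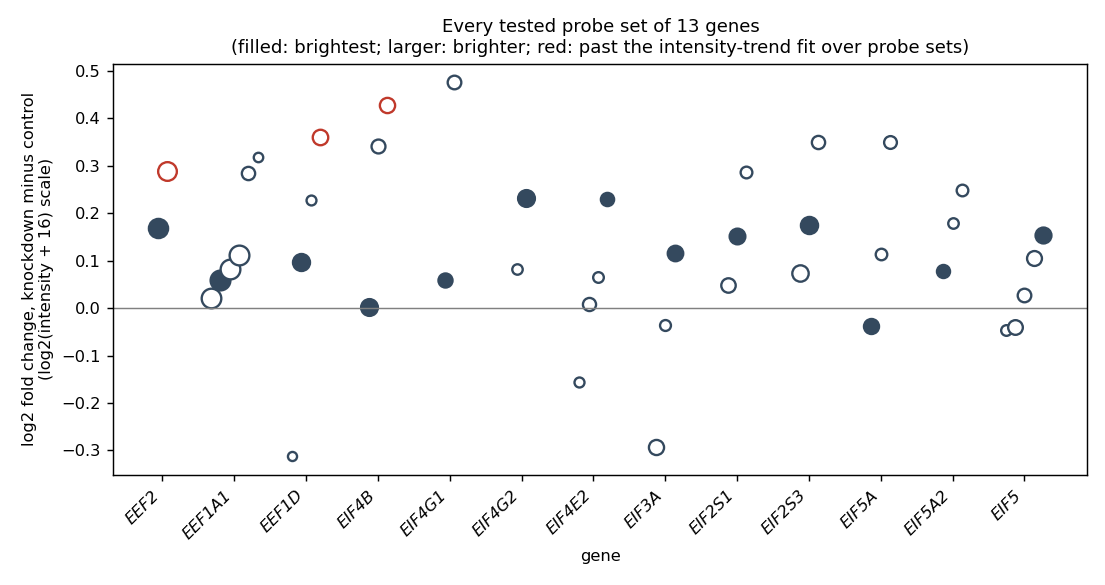
Log2 fold change, knockdown minus control, of every tested probe set of 13 genes, filled for the brightest of each gene and larger for brighter ones. Probe sets of EEF2, EEF1D and EIF4B other than the brightest passed the intensity-trend fit over probe sets (red). EIF3A, EIF4E2, EIF5, EIF5A and EEF1D had probe sets on either side of 0.

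Where every probe set of the 33 members with several tested was fitted on its own, the readings of 1 gene often differed. Of 128 tested member probe sets, 5 passed the intensity-trend fit (3.91%), all higher, against 2.34% of 22639 probe sets. They belonged to EIF3G, EEF1A2, EEF2, EEF1D and EIF4B. For the last 3 the probe set that passed was not the brightest. This fit was added after the data were seen.

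The enzymes that act on elongation factors had 5 tested genes and none passed. EEF1AKMT1, a lysine methyltransferase of eEF1A, read 89.1 and 79.4 in control and 98.8 and 101 in knockdown (0.21, limma intensity-trend adjusted p = 0.288). EEF1AKMT2, another, read 250.1 and 235 against 239 and 223 (-0.07), with 0.19 at a dimmer probe set. EEF1AKMT3 was dim, at 16.3 and 14.3 against 22.4 and 18.6 (0.22). EEF2K, the kinase that switches eEF2 off, read 112 and 107 against 101 and 113 (-0.03), and EEF2KMT, which methylates eEF2, gave 0.13. The non-coding EIF1B-AS1, transcribed from the strand opposite EIF1B, read 12.3 and 9.96 against 8.27 and 4.19, near the filter (-0.29, intensity-trend adjusted p = 0.447). EIF3J-DT, divergent from EIF3J, gave -0.09.

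The members with a pyrimidine run at the start overlapped the others in their fold changes. The 10 that were tested lay between -0.09 (EIF3M) and 0.22 (EIF2D), with a median of 0.06 and 8 above 0, and the 33 tested members with a window but no run had a median of 0.01 and 17 above 0. Neither set held a member past either fit, because EIF3G and EEF1A2 had no window. Members with and without CACGTG had medians of 0.00 and 0.03.

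Partner genes of the same pathway were read from lists set by their known roles, each summarised over its tested genes. Of 12 listed partners of the eIF4 complex 9 were tested, and of 9 listed mitochondrial factors 8. Of 6 kinases and phosphatases of eIF2 alpha, 6 release and recycling factors, 9 partners of the eIF4 complex, 12 genes of mTOR and MNK signalling and 8 mitochondrial translation factors, 0 passed either fit, with medians of 0.04, 0.02, -0.01, -0.03 and 0.02. Enzymes that build diphthamide on eEF2 and hypusine on eIF5A had 8 tested genes, all 8 above 0 (47.5% of all genes were), with a median of 0.08. DPH7, DNAJC24, DPH3 and DPH6 lay between 0.0056 and 0.048, and DPH2 and DPH5 gave 0.12 and 0.13. Only DHPS and DOHH had both knockdown arrays above both controls, as did 22.7% of all genes. DHPS, deoxyhypusine synthase, was the one that passed the intensity-trend fit, as did 2.99% of all genes. It read 71.3 and 84.0 in control and 121 and 114 in knockdown (0.52, limma intensity-trend adjusted p = 0.0133, and 0.252 in the common-prior fit). The other DHPS probe sets stood at 46.3 and 48.1 against 63.3 and 58.5 (0.28), and 37.6 and 39.9 against 54.2 and 56.1 (0.38). DOHH, which completes hypusine, was dim at 15.3 and 19.1 against 24.9 and 25.8 (0.32, intensity-trend adjusted p = 0.272). Another DOHH probe set, dimmer still at 11.46 and 12.75 against 13.5 and 11.06, gave 0.01, so the difference was not shared by both.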

How the data were processed

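Expression was measured on single-colour Affymetrix arrays in 2 control and 2 knockdown samples of KM-H2. The values the authors deposited are intensities per probe set on a linear scale. For their summarising and scaling, the method is not stated in the labels, and per the labels' protocols biotinylated cRNA was made by the 1-cycle method. Of 54613 probe sets, 41091 had 1 gene in the platform annotation, 1801 several and 11721 none; only the first kind was named, so EEF1B2, EEF1G, EIF3CL, EIF4A1, EIF4EBP3 and EEF1E1-BLOC1S5 have no value. All 57 members matched RefSeq (GRCh38.p14) by gene number.

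Intensities became log2(intensity + 16), which understates changes of dim genes. Genes whose brightest probe set had a mean below 4.60 were left out. limma 3.58.1 (R 4.3.3, lmFit and eBayes, with and without an intensity trend, 2 residual degrees of freedom) compared the groups over all 12922 genes, with Benjamini-Hochberg adjustment. Of the 55 members tested, 29 were read at a plain probe set, 20 at one shared by transcripts and 6 at one whose probes can match other genes. The number of arrays limits precision. An SE given without its fit is that of the common-prior fit. Scripts were tested on simulated data. Members and lists were chosen with earlier results of these data known. The genes written out are those past either fit, the largest moderated t and the brightest of each role, and paralogue pairs; EEF2, EEF1D, EIF2D, EIF2S2, EIF3A, EIF4B, EIF4E3 and the members given by a fold change alone were added after their values were seen. Alternatives covered pseudocount, filter, normalization, probe set choice, variance prior, threshold, a replicate block and each array left out.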

Additional observations from a re-analysis of the deposited data

How the results depend on the processing

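EIF3G and EEF1A2 stayed above 0 under every alternative run, at 0.39 to 0.51 and 0.27 to 0.43. The count of members past the common-prior fit was 0 in each alternative except a pseudocount of 64, which gave 2 (EIF3G and EEF1A2). In that setting 3.22% of all genes passed the common-prior fit, against 0.0155% in the main run. The count past the intensity-trend fit was 2, against 2.99% of all genes. It became 1 with no filter (0.42% of all genes) or a threshold of 0.01, and 0 with probe sets of the same gene averaged (0.2%). It was 3 with a pseudocount of 64 (3.01%), a mean intensity of at least 32 (5.89%), quantile normalization (2.69%) or robust prior estimates, each adding EEF2. It was 4 at a threshold of 0.10, 5 with median centring (4.74%) and 5 with every probe set tested separately (2.34% of all probe sets). It was 1 to 3 with single arrays left out, and only EIF3G was called without knockdown replicate 2. In those fits the lone array of a group is assumed to vary like the other group. With the replicate block the count past the intensity-trend fit was 7, 6 higher and 1 lower (EIF2S2), against 7.82% of all genes. The numbers need not pair the arrays, since deviations of the arrays numbered 1 correlated at r = -0.01 across genes. The median of the members was 0.10 with median centring, where that of all genes was 0.05, and 0.01 to 0.07 with single arrays left out. Median centring turned EIF1 to 0.0074, EIF3F to 0.028, EIF4EBP1 to 0.027 and EIF5A to 0.020, and averaging probe sets of the same gene turned EIF5A to 0.14 and EEF1AKMT2 to 0.16. With single arrays left out, EIF3C ranged from -0.021 to 0.18, EIF3F from -0.065 to 0.0078, EIF3J-DT from -0.18 to 0.0019, EIF4EBP1 from -0.060 to 0.00036 and EIF5A from -0.10 to 0.023. None of the genes in these 2 sentences passed a fit in any setting. The cause was not tested. With 2 arrays per group and 2 residual degrees of freedom, both calls rested on the prior variance and on how probe sets were combined. Both intensity-trend calls held with a pseudocount of 1 or 64, and that of EEF1A2 was lost with no filter.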
